A study of Mus musculus with 4 samples.

Results

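Broad domains of the forkhead TF Foxr2 were examined in a mouse neurosphere line. A broad domain was a stretch of the genome covered by a V5 CUT&RUN peak of 5000 bp or more in either replicate of the Foxr2 p53LOF line, on chromosomes 1 to 19 and X and without overlap with a control peak, with overlapping broad peaks of the 2 replicates merged. There were 754 such domains among 45471 sites in all. The members were therefore chosen by the measured length of their peaks, and their lengths and folds are given as a description. In CUT&RUN an antibody tethers a nuclease to a chromatin protein, and the DNA cut free around it is sequenced. The antibody recognised the V5 tag at the C-terminal end of the FOXR2 protein.

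The Foxr2 p53LOF group was a single line (2 replicates) grown as neurospheres from GFP-positive tumour cells. The tumours arose in C57BL/6J mice after in utero electroporation (IUE) of the ganglionic eminence (GE) with a piggyBac vector that drives V5-tagged FOXR2 and GFP from the ubiquitous CAG promoter, together with a CRISPR vector carrying a guide against Trp53. The V5 control group (2 replicates) came from a separate IUE model that lacks the V5 tag, for which the labels give the genotype H3.3G34R, so the groups differ in more than the tag. Each sample held 500000 cells, fixed with 0.1% formaldehyde for 1 minute, and a peak is an average over these cells, in which the share of cells bound and the binding per cell cannot be told apart. No label says that the replicates came from separate cultures, so their spread may be technical. Both groups had 2 replicates, for which the smallest two-sided exact permutation p is 0.333, so no test between groups was made.

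TFs mostly give narrow peaks of CUT&RUN signal over the short sequence they recognise. Long, unbroken stretches of signal are better known from chromatin marks and cofactors at genes of high activity or of cell identity, where enhancers and promoters lie close together. Foxr2 belongs to the forkhead family, whose members bind DNA through a winged-helix domain. It is normally silent in most of the body, and it is activated by rearrangement in a group of brain tumours in children.

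The windows around a few summits are printed as examples. A summit is the base with the highest signal of a peak, and each window takes in 100 bp on either side of the summit of the higher peak, on the plus strand of GRCm38. The windows of the Cbx5 and Hnrnpa1 domain (chr15:103240027-103240227), of an intronic Trio domain (chr15:27937491-27937691), of the Sox2 domain (chr3:34664099-34664299) and of the miR-9-2 domain (chr13:83731979-83732179) were chosen because they have the highest folds or the greatest lengths among the 536 domains considered for printing, whose window lies outside annotated UTRs and on a chromosome used for sequences. The window at Eif4a1 (chr11:69672663-69672863) had the highest fold among those with letters of an ETS site of ELK type, and the window in Sin3a (chr9:57073234-57073434) had the highest fold among those with letters of a forkhead site. Capitals mark matches to the 8 motifs described with the motif counts, and a window with no capitals holds none of those letters.
Cbx5 and Hnrnpa1: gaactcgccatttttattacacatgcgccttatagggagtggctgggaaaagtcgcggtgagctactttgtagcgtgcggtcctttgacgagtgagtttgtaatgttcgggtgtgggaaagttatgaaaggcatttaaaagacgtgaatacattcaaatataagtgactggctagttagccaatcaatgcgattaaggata
Trio intron: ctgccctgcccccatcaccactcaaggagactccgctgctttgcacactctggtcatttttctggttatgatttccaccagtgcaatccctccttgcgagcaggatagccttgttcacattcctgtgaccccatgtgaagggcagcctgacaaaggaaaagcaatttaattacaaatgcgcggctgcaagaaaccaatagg
Sox2: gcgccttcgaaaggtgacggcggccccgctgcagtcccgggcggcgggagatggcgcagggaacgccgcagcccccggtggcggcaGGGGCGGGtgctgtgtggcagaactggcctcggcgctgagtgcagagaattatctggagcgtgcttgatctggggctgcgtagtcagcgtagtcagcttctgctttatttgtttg
miR-9-2 region: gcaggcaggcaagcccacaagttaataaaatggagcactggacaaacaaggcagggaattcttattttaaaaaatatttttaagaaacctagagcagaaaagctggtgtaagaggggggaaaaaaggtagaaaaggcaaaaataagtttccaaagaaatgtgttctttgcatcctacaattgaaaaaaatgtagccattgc
Eif4a1: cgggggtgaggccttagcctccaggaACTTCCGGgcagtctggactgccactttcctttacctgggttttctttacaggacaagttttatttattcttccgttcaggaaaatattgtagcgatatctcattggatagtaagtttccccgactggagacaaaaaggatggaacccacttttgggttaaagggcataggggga
Sin3a intron: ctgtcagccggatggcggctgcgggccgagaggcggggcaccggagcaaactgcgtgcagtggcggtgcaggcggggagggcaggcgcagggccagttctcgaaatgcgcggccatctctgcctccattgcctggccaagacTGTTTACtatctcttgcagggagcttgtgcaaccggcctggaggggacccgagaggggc
The summit of the Sox2 window lay 13794 bp from the Sox2 start, and the miR-9-2 window did not reach the hairpin. The Sox2 window had a GC content of 65.7% with 19 CpG dinucleotides, whereas the miR-9-2 window had a GC content of 36.8% with none. The summits of the longest domains thus did not share one base composition.

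The peak lists behind the domains differed in size. On chromosomes 1 to 19 and X, the Foxr2 p53LOF lists held 31849 peaks in replicate 1 and 38511 in replicate 2, with median lengths of 934 and 923 bp, and the V5 control lists held 249 and 83. The fold of a peak is its fragments at the summit plus 1 over the background of its library plus 1, and this background, recovered from the folds and p-values, was 1.26 and 2.04 fragments in the Foxr2 p53LOF libraries and 1.69 and 0.642 in the V5 control libraries, in the order of their replicate numbers. Peaks of 5000 bp or more made up 0.976% of the list of replicate 1 (311 peaks) and 1.86% of that of replicate 2 (715 peaks). After overlap with control peaks had removed 5 and 6 of them, 306 and 709 broad peaks were left. The removed peaks lay at Hjurp and Trpm8 on chromosome 1, at Sfi1 and Drg1 on chromosome 11, at Tmem267 on chromosome 13, and on chromosomes 9 and 17. The control lists had 5 and 3 broad peaks on the same chromosomes.

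**Figure D1:**
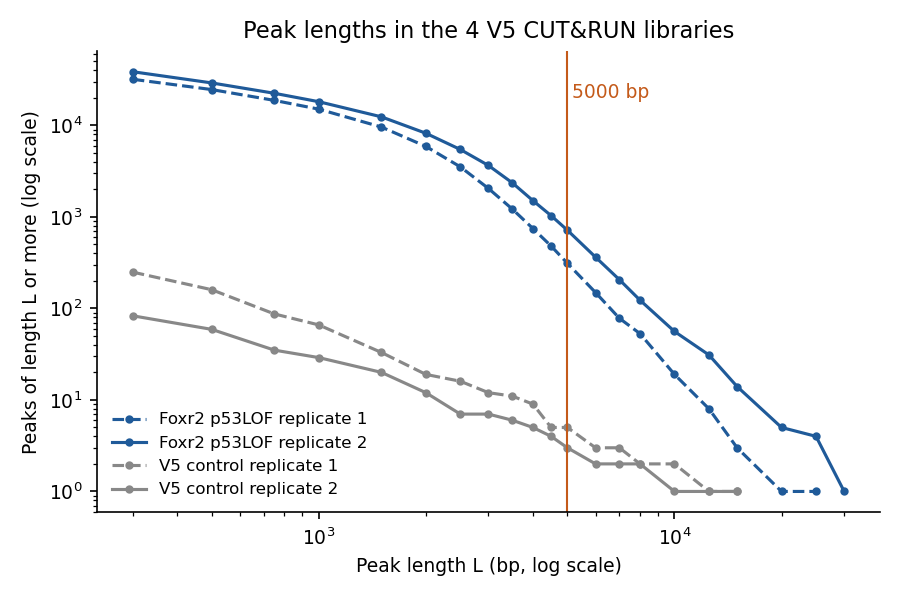
Number of peaks (log scale) at least as long as the length on the x axis (bp, log scale), for each of the 4 libraries on chromosomes 1 to 19 and X; the vertical line marks 5000 bp. The Foxr2 p53LOF curves fall smoothly through the line, at 311 peaks in replicate 1 and 715 in replicate 2, and the V5 control curves are at 5 and 3.

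The broad domains had a median length of 6046 bp, with quartiles of 5364 and 7265 bp and a range of 5001 to 31646 bp, and together they covered 5.19 Mb. Most were not far above the limit: 364 were under 6000 bp, 58 were 10000 bp or more and 5 were 20000 bp or more. The single peaks just inside the limit lay at Rc3h1 (5001 bp), at Ptp4a1 (5005 bp, in a merged domain of 5601 bp) and nearest Aldh4a1 (5005 bp). The peaks just outside it lay nearest Anp32a (1 bp short of it), at Nr4a3 (4996 bp) and nearest Thra (4995 bp). The folds of these 6 peaks ran from 11.5 to 27.8, with no step at the limit. The filter in the study's methods removes single peaks of 10000 bp or more, and with it 733 domains were left.

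Length in the replicate that did not choose a peak is independent of the rule. Of the 306 broad peaks of replicate 1, 261 (85.3%, exact 95% binomial interval 80.8 to 89.1%) met a replicate 2 peak of 5000 bp or more, against 3.68% of all replicate 1 peaks. The share fell with length, to 41.7% of the 434 peaks of 4000 to under 5000 bp, 13.8% of the 1292 peaks of 3000 to under 4000 bp and 1.84% of shorter peaks. Of the 709 broad peaks of replicate 2, 252 (35.5%, 32.0 to 39.2%) met a replicate 1 peak of 5000 bp or more, against 0.927% of all replicate 2 peaks. In that direction the shares were 4.07%, 0.751% and 0.161% in the same shorter classes. The intervals cover counting error over peaks only. All 754 domains had some peak in both replicates, as did 99.9% of the other sites whose longest peak was 3000 to under 5000 bp and 47.8% of all other sites.

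More domains owed their choice to replicate 2. The domain was broad in both replicates in 252 cases, in replicate 2 only in 457 and in replicate 1 only in 45. The longest peak was the longer in replicate 2 in 651 of 754 domains (86.3%), with medians of 4574 bp in replicate 1 and 5910 bp in replicate 2. This order is fixed by the rule in the domains broad in a single replicate, so the share is a description. Over all peaks the median lengths were 934 and 923 bp. Of the 21378 other sites with a peak in both replicates, 14574 (68.2%) were longer in replicate 2. Replicate 1 split 342 domains into 2 or more peaks and replicate 2 split 57. The peaks of replicate 1 still covered a median of 81.0% of a domain, and in 391 domains both replicates covered at least 80%. The summits of the highest peaks lay a median of 98 bp apart in the replicates, and within 200 bp of each other in 441 domains (58.5%), close to the 59.7% of the other sites with a longest peak of 3000 to under 5000 bp. In 68 domains (9.02%) the replicates had their summits more than 2000 bp apart, for which shorter sites have less room. The background was also higher in replicate 2, and the part of depth in the difference in length was not tested.

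**Figure D2:**
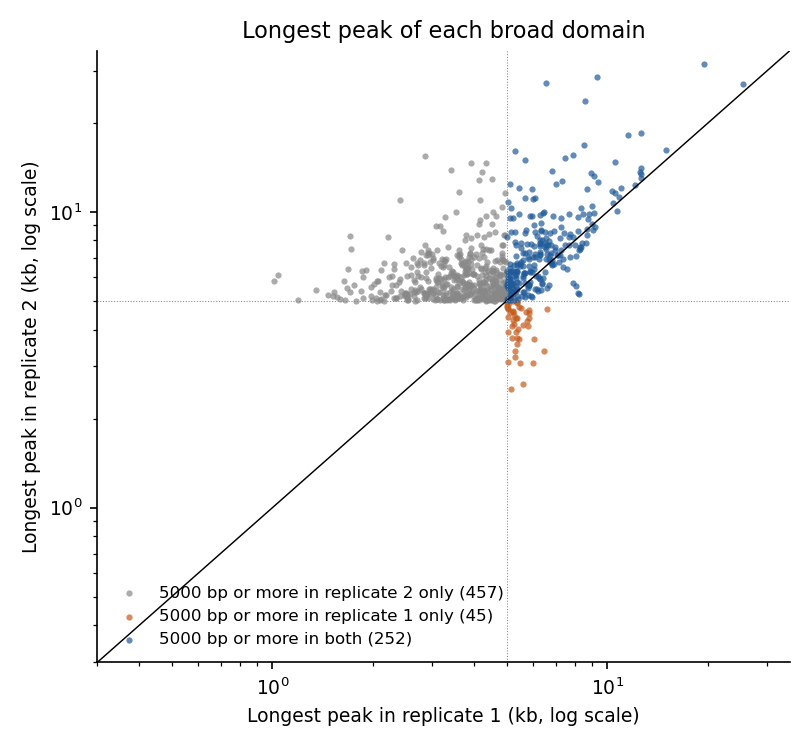
Longest peak in replicate 1 (x axis) and in replicate 2 (y axis) of each of the 754 broad domains, in kb on log scales, with the diagonal and dotted lines at 5 kb. Of the points, 457 are broad in replicate 2 only (grey), 45 in replicate 1 only (orange) and 252 in both (blue), and 651 lie above the diagonal.

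The domains were also high, not only long. The median fold was 14.6 in replicate 1 and 17.4 in replicate 2, which is 32 and 52 fragments at the summit, against 5.30 and 4.93 (11 and 14 fragments) at other sites and 11.5 and 13.5 at other sites with a longest peak of 3000 to under 5000 bp. Folds ran from 4.42 to 70.7 in replicate 1 and from 5.59 to 99.2 in replicate 2. Fold and length are measured on the same peaks, so fold is not independent of the rule. Across the domains, which share both libraries, the folds of the replicates ranked alike (Spearman rank correlation 0.888), while length and the lower fold hardly ranked together (rank correlation 0.171, against 0.733 across other sites with a peak in both replicates, which have no lower limit on length). The Cbx5 and Hnrnpa1 domain shows this, with the highest fold of all and a length of 5556 bp.

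By place, 475 domains held the start of a single protein-coding gene, 101 held the starts of 2 or more such genes, 96 lay within a coding gene without reaching a start, and 82 lay outside coding genes. Thus 576 domains (76.4%) covered a coding start, against 23% of other sites. A longer stretch holds more starts whatever it is, and among other sites with a longest peak of 3000 to under 5000 bp the share was 74.6%, so the domains differed little from the next shorter sites. Within the domains the share had no steady trend with length, at 74.5% under 6000 bp, 81.1% from 6000 to under 7000 bp, 77.1% from 7000 to under 10000 bp and 72.4% at 10000 bp or more. The summit lay within 1000 bp of a coding start in 61.0% of domains, 68.9% of the next shorter sites and 24.9% of other sites, and in domains of 10000 bp or more in 39.7%. By annotation, 164 summits (21.8%) lay in an exon of a coding gene, 280 (37.1%) in an intron and 310 (41.1%) outside coding genes. The same shares were 26.4%, 36.6% and 37.0% in the next shorter sites and 11.8%, 46.1% and 42.2% in all other sites. The start of an lncRNA gene lay in 22.5% of domains, against 13.6% of the next shorter sites and 3.91% of other sites. Only 121 domains held no start of any annotated gene.

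Around the start of a single coding gene, the domains reached further into the gene than upstream of it. In these 475 domains the median extent was 2534 bp upstream and 3562 bp downstream, and 318 (66.9%) reached further downstream, close to the 65.6% of the next shorter sites and the 62.4% of other sites. At 3000 bp upstream of the start a peak was present at 27.6% of the domains in replicate 1 and 43.2% in replicate 2, and at 3000 bp downstream at 51.4% and 68.2%. The summit lay within 1000 bp of a coding start in 77.1% of these domains, against 91.2% of the next shorter sites and 96.8% of other sites with a single coding start. The domain ran over the whole gene in 34 cases (7.16%), a share that follows from its length, as at Sox2, a gene of 2057 bp in a domain that reached 13572 bp upstream of the start and 18073 bp downstream. The genes with a start in a domain had a median length of 23.4 kb, against 25.4 kb for genes with a start in another site only and 10.4 kb for genes with no start in a site.

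Base composition was not used by the rule. The domains had a median GC content of 48.2% (quartiles 45.2 and 52.2%), against 49.6% in the next shorter sites and 46.6% in other sites. Within 150 bp on either side of the summit, a window of equal length for all, the medians were 55.1%, 56.8% and 47.2%. CpG dinucleotides, which cluster in CpG islands at many promoters, were denser around a single coding start in the domains than in all other sites of that kind, but not at the summit. Within 150 bp of the summit the medians were 5.32 CpG per 100 bases at these domains and 6.31 at both the next shorter and all other sites with a single coding start. In the 500 bp before the start there were 6.70 CpG per 100 bases at the domains and 5.43 at other sites with a single coding start. In the 500 bp after the start the values were 8.49 and 8.03, from 500 to 1000 bp downstream there were 5.44 and 3.46, and from 500 to 1000 bp upstream there were 3.30 and 1.96. Beyond 4500 bp downstream the values were 1.18 and 1.13. The domains had the higher value in each of these bins, with the smallest difference at the outer one.

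**Figure D3:**
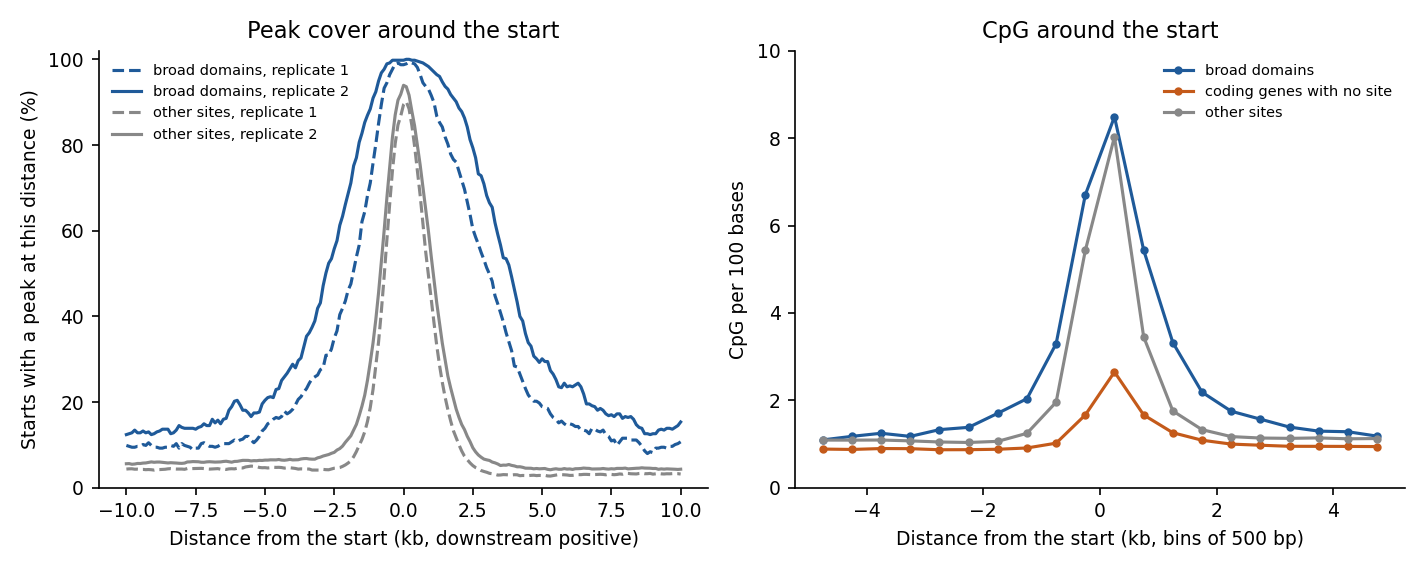
Left, percentage of starts with a peak at each distance from the start (kb, downstream positive) for 475 domains and 9107 other sites with a single coding start, in each replicate. Right, CpG per 100 bases in bins of 500 bp for the same starts and for 10182 coding genes with no start in a site; the blue line of the domains lies above the grey line on both sides of the start and comes close to it toward the edges.

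Exact motif letters within 150 bp on either side of the summit were counted on both strands, and each share is given with that of other sites and with that of all 32851 RefSeq promoters of 300 bases in GRCm38.p6. The letters of an ETS site of ELK type, ACTTCCGG, occurred in 12 domains (1.59%, against 0.948% of other sites and 3.89% of promoters). All 12 had their summit within 1000 bp of a start, where the share was 2.61%, against 2.78% of other sites so placed. The ETS site of ETS1 type, ACAGGAAG, occurred in 2.12% of domains (3.26% of other sites, 3.58% of promoters). The NRF1 letters GCATGCGC occurred in 1.59% (0.839%, promoters 2.71%) and the YY1 letters AAGATGGC in 3.71% (2.21%, promoters 2.75%). The forkhead letters TGTTTAC occurred in 3.18% of domains (4.16% of other sites, 3.65% of promoters) and the SOX letters CATTGTT in 3.85% (4.69%, promoters 3.78%). The SP/KLF letters GGGGCGGG occurred in 11.8% (5.26%, promoters 16.5%) and the E-box letters CAGCTG in 14.6% (16%, promoters 16.3%). None of the 8 motifs contains another on either strand, and only the E-box reads the same on both strands. Near starts, domains and other sites had the NRF1 letters in 2.39% and 1.95%, the YY1 letters in 4.78% and 3.10% and the SP/KLF letters in 16.3% and 16.1%. In the next shorter sites the shares were 13.7% for SP/KLF, 2.40% for the ELK type, 1.95% for NRF1 and 3.33% for YY1, of which the first 3 were above those of the domains. With the summit more than 1000 bp from a coding start, the SP/KLF letters occurred in 14 of 294 domains (4.76%) and in 1.67% of other sites. The other motifs differed by fewer percentage points there. Forkhead (4.76% and 4.75%), SOX (6.12% and 5.63%), E-box (17.7% and 16.3%) and YY1 (2.04% and 1.92%) were higher in the domains. ETS1 type (2.38% and 3.63%), ELK type (0% and 0.340%) and NRF1 (0.340% and 0.471%) were lower.

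The longest domain, at chr3:34636833-34668478 on GRCm38, covered Sox2, which encodes an HMG-box TF of neural stem and progenitor cells, and a start of the lncRNA gene Sox2ot around it. Its longest peak was 19440 bp in replicate 1 and 31591 bp in replicate 2, with folds of 12.4 and 19.7, and the peaks of replicate 1 covered 30431 bp of it in 2 pieces. A further domain of 9691 bp lay at another Sox2ot start. The domain of 23766 bp at Bahcc1, a gene of a BAH-domain chromatin protein, had a longest peak of 8573 bp in replicate 1 and 23766 bp in replicate 2 (folds 17.2 and 26.3). The domain of 18404 bp at Trio, which encodes a guanine nucleotide exchange factor, had 12584 and 18404 bp (folds 10.2 and 14.5). Both were longer in replicate 2.

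Pou3f3, a POU-domain TF gene of the developing brain, lay in a domain of 16407 bp (chr1:42680501-42696907) with a longest peak of 14923 and 16165 bp and folds of 17.2 and 21.7. It was a single peak in both replicates, and with 2 neighbours it formed a run of 3 domains that covered 93.0% of 34.4 kb. The domain of 16306 bp at Cdkn1b, which encodes the cell cycle inhibitor p27, had 7492 and 15212 bp and folds of 18.1 and 29.6, and it began 4112 bp upstream of the start and ended 12193 bp downstream, past the end of the gene of 5113 bp. The domain of 15588 bp at Cox20, an assembly factor of cytochrome c oxidase, reached into the neighbouring gene Hnrnpu and had folds of 43.3 and 44.0. The domain of 14967 bp at Pcdh17, a protocadherin gene of cell adhesion, had 5670 and 14967 bp and folds of 13.7 and 10.2. The domain of 18189 bp at Abt1, a gene of a basal transcription activator, had 11503 and 18189 bp and folds of 30.5 and 53.6.

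Tcf4, which encodes a basic helix-loop-helix TF, carried the longest run. On chromosome 18, 6 domains lay within 112 kb and covered 69.5% of that stretch, and a further one lay at a start outside the run. The 3 longest were of 16297, 15985 and 15481 bp, and the first of them had a longest peak of 10559 bp in replicate 1 and 14715 bp in replicate 2, with folds of 11.9 and 16.1. The third lay 33087 bp from a start at its summit and was broken in replicate 1 into 6 peaks, the longest of 2858 bp. Runs of 3 or more domains within 50000 bp of each other, a rule set after the values were seen, numbered 13. Besides Tcf4 they lay at histone genes (6 domains in 109 kb, and 4 in 77.9 kb), around Aurkb, Borcs6, Tmem107 and Per1 (5 in 91.1 kb), around Nr1d1, Msl1 and Casc3 (5 in 64.7 kb), around Trp53, Wrap53, Fxr2 and Eif4a1 (4 in 99.2 kb) and at Malat1 and Neat1 (3 in 55.1 kb), among others.

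The 10 highest domains by the lower of their folds were of 5040 to 15588 bp. The Cbx5 and Hnrnpa1 domain (chr15:103238505-103244060) reached a fold of 70.7 in replicate 1, from 159 fragments, and of 99.2 in replicate 2, with a longest peak of 5051 and 5556 bp. Cbx5 encodes heterochromatin protein 1 alpha, which binds methylated histone H3, and Hnrnpa1 encodes an RNA-binding splicing regulator, and they start close together on opposite strands. The next by fold in the weaker replicate were the domain at Mttp and Trmt10a (59.2 and 66.4, 5040 bp), the Trio intron domain (50.8 and 56.2, 11999 bp) and the domain at Ppp1r15b (50.4 and 64.1, 9059 bp), a regulatory subunit of the phosphatase of eIF2 alpha. Rnf44 (47.7 and 65.0), Mnt (46.8 and 69.6), a repressor that pairs with MAX, Cox20, Rack1 (39.8 and 45.3), a ribosome-bound scaffold, and Rbm15 (38.4 and 57.2), an RNA-binding protein of RNA methylation, followed, with a domain in an intron of Fam178b (38.4 and 46.0). In 638 of all 754 domains (84.6%) the fold was higher in replicate 2.

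Histone genes filled domains together. Of 67 genes of the clustered histone families, 50 had a start in a domain (74.6%), in 15 domains, 12 of them on chromosome 13. Of all 21728 protein-coding genes, 3.19% had a start in a domain. The domain at chr13:23737235-23764380 held the starts of 9 histone genes, Hist1h1a, Hist1h1c, Hist1h2ab, Hist1h2bb, Hist1h3a, Hist1h3b, Hist1h3c, Hist1h4a and Hist1h4b, with folds of 24.7 and 34.8. Its longest peak was 27146 bp in replicate 2, and replicate 1 broke it into 7 peaks of at most 6570 bp, the largest difference in length of any domain. The next histone domains on chromosome 13 were of 16805 bp (Hist1h2af, Hist1h3g, Hist1h4h; folds 25.6 and 33.8), 14233 bp (Hist1h1b and 3 others; 23.0 and 28.6) and 13705 bp (Hist1h2ag and 4 others; 23.4 and 26.0). A domain of 13552 bp on chromosome 11 held Hist3h2a, Hist3h2ba and Trim17, and a domain of 10719 bp on chromosome 3 held Hist2h2aa1, Hist2h2aa2, Hist2h3c1 and Hist2h3c2. These genes are near-identical copies, how reads that align to several places were treated is not given in the sources used here, and genes of a domain are not independent. Of the 13 domains with 3 or more coding starts, 10 held histone genes, and the other 3 were those of Nek8, Rpl23a and Tlcd1, of Fam173a, Metrn and AC134908.4, and of Atf5, Il4i1 and Nup62.

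Among lists of 10 or more genes, glial TF genes had the next highest share after histone genes. Of 20, 10 (50%) had a start in a domain and 18 had one in any site, where 6.05% of all coding genes with a start in a site had one in a domain. Nkx2-2, a homeobox TF of oligodendrocyte precursors, lay in a domain of 13302 bp with a longest peak of 12561 bp in replicate 1 and 13043 bp in replicate 2 and folds of 9.72 and 11.8. Nfib (11582 bp), Nfia (7281 bp) and Nfix (6182 bp), of the nuclear factor I family that acts in gliogenesis, had folds of 13.3 and 16.1, 9.28 and 12.2, and 8.84 and 9.20, and Nfia held further domains of 14216, 11317 and 5318 bp within the gene. Sox10, the defining TF of the oligodendrocyte lineage, lay in a domain of 7085 bp (5346 and 7085 bp, folds 14.1 and 18.1). Id3 (9812 bp) and Id1 (8281 bp), which encode inhibitors of basic helix-loop-helix TFs, Hes1 (6033 bp), an effector of Notch, Zfp536 (6060 bp) and Zfp488 (5897 bp) made up the rest. At Id1 the longest peak was 1708 bp in replicate 1 and 8281 bp in replicate 2, whereas at Id3 it was 8830 and 9812 bp. In the Nfi family 3 of 4 genes had a start in a domain and in the Sox family 4 of 19, with Sox11 (7359 bp, folds 16.3 and 18.7) and Sox4 (5901 bp, folds 18.1 and 20.4) besides Sox2 and Sox10. Olig2 and Olig1, further TFs of the oligodendrocyte lineage, stayed under the limit. Their longest peaks at a start were of 4722 and 4395 bp for Olig2 and of 2207 and 4674 bp for Olig1. Sox6 had 3789 and 4598 bp. Sox9 (2169 and 2901 bp), Sox8 (1851 and 1388 bp) and Myrf (1171 and 1275 bp) were further below the limit, and Nkx6-2 had no peak at a start.

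Of 20 GE-patterning and interneuron genes, from the region in which the tumours were started, none had a start in a domain and 8 had one in any site, and the counts for 16 dorsal telencephalon genes were 0 and 8. Of all coding genes, 3.19% had a start in a domain and 52.8% had one in any site, so in lists this short these counts are near the background and are not a result about them. Dlx6 had peaks of 1016 and 2078 bp at a start, and no peak covered a start of Nkx2-1, Lhx6, Dlx5, Gad1, Gad2 or Sst in either replicate. Of 14 marker genes of microglia and endothelial cells, 0 had a start in a domain, which is likewise near the background, and 2 had one in any site. No peak lay at a start of Aif1, Cx3cr1, Tmem119, Pecam1, Cldn5 or Cdh5, and P2ry12 had peaks of 2055 and 2102 bp. Among 15 oligodendrocyte markers, Mbp (6800 bp, folds 9.28 and 12.5), a major protein of myelin, and Cspg4 (5336 bp, folds 7.07 and 12.8), which encodes the NG2 proteoglycan, had a start in a domain, and 10 had one in any site. Bcas1 (4435 and 4380 bp) and Cnp (1822 and 4529 bp) came closest among the rest, and Pdgfra had peaks of 1047 and 1503 bp. The Cspg4 domain was broad in replicate 2 alone, and its start had no peak in replicate 1. Of 15 astrocyte and radial glia genes, Vim (5755 bp) and Nes (5673 bp), of intermediate filaments, had a start in a domain, and 10 had one in any site. Among the rest, Ptprz1 (3172 and 4932 bp), Aldoc (2950 and 4251 bp) and Fabp7 (2986 and 4050 bp) came closest, and Gfap, Aqp4 and Aldh1l1 had no peak at a start. Of 15 pan-neuronal genes, Map2 (6398 bp, folds 14.1 and 13.8), of a microtubule-associated protein, was the only one with a start in a domain. These are peaks of a bound protein and do not measure expression.

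Of 18 AP-1 and immediate early genes 7 (38.9%) had a start in a domain: Junb (8236 bp, 7894 bp in replicate 1 and 8196 bp in replicate 2), Ier2 (7035 bp, folds 18.6 and 21.0), Klf6, Myc, Jund, Egr3 and Ier5, the last 5 between 5088 and 6066 bp. Of 19 receptor and MAPK feedback genes 5 (26.3%) had one, Spry2 (9017 bp), Spred2 (7444 bp), Spred1 (6498 bp) and the phosphatase genes Dusp4 (5531 bp) and Dusp6 (5362 bp), which encode feedback inhibitors of the pathway. Outside domains the list ran from the receptor gene Erbb3 (4202 and 4766 bp) and the inhibitor gene Spry4 (4727 and 4291 bp) to the feedback gene Errfi1 (885 and 1057 bp) and the receptor genes Egfr, Erbb2 and Pdgfrb, with no peak at a start. The receptor genes are too few for their lack of domains to be read against the 3.19% of all coding genes. Spry2 had a longest peak of 5512 bp in replicate 1 that did not reach its start, and of 7543 bp over the start in replicate 2. Of 24 Dusp genes 3 had a start in a domain, with Dusp16 (5746 bp) as the third, and of 3 Spry genes 1. Of 26 ETS genes 3 (11.5%) did. Etv1 (12818 bp) had a longest peak of 4146 bp in replicate 1 and 12818 bp in replicate 2 (folds 14.6 and 16.8), while Erf (6900 bp, folds 17.7 and 23.3), a repressor of the family, had 6546 and 6900 bp, and Elf2 (5109 bp) had 4197 and 5109 bp. Etv4 and Etv5, with peaks under 4000 bp in both replicates, and Ets1, with 3082 and 4729 bp, did not reach the limit.

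Of 20 cell cycle genes 5 (25%) had a start in a domain, against 3.19% of all coding genes. They were Cdkn1b, Ccnb1 (7417 bp), Ccnd1 (6873 bp, 6675 and 5646 bp), Myc (5747 bp, folds 13.7 and 16.4) and Cdkn2a (5484 bp). Ccnd1 and Cdkn2a were the longer in replicate 1, against the general order. Of 36 chromatin regulator genes 35 had a start in a site and 5 (13.9%) in a domain. The 5 are 14.3% of those with a start in a site, against 6.05% of all coding genes with one. Kdm6b, a demethylase of histone H3 lysine 27, lay in the longest of their domains (13514 bp, 12591 and 13450 bp, folds 30.05 and 41.1). It was ahead of Cbx3 (9685 bp), Kmt2d (8314 bp), Arid1a (7228 bp) and Cbx5. Of 20 Notch and Hedgehog genes 3 had a start in a domain, Ptch1 (12659 bp, folds 23.4 and 31.2), a receptor and target of Hedgehog, Hes1 and Notch1 (5706 bp). Of 14 p53 pathway genes Trp53 (6438 bp, folds 31.4 and 41.1), which the guide in this line targets, and Bbc3 (6246 bp, folds 11.9 and 12.5), which encodes the cell death factor PUMA, had one. Cdkn1a, a classical target of p53, had peaks of 2122 and 2488 bp.

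Among the remaining families, Klf had 3 of 17 genes with a start in a domain (Klf7, Klf6, Klf10), Zbtb 5 of 41 (12.2%), Irx 1 of 6 (Irx5) and Fox 1 of 44 (2.27%, Foxd1, 5245 bp). Of 96 cytoplasmic ribosomal protein genes 5 had one (5.21%, among them Rpl23a, Rpl36 and Rpl35), and 91 had a start in some site. All coding genes had a share of 3.19%, or 6.05% of those with a start in a site. The Fox and ribosomal protein shares (the latter 5.49% of those in a site) are near this background, and the Irx list is too short to be read against it. The Zbtb genes were Zbtb37, Zbtb18, Zbtb7b, Zbtb1 and Zbtb25, the last 2 in the same domain. Of 394 Zfp genes 14 (3.55%) had one, close to the share of all coding genes, and the 5 longest were at Zfp516, Zfp219, Zfp36, Zfp536 and Zfp608. Of 1134 olfactory receptor genes none had a start in a domain and 1 had one in any site. Of 39 Hox, 5 Zic and 56 clustered protocadherin genes none had a start in a domain, which in lists of this size is near the background, and 9, 4 and 3 had one in any site.

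The list counts rested in part on replicate 2. With the broad peaks of replicate 1 alone, 1.26% of all coding genes had a start in a domain, and the counts were 35 of 67 histone genes, 6 of 20 glial TF genes, 4 of 18 AP-1 and immediate early genes, 3 of 20 cell cycle genes, 3 of 36 chromatin regulator genes and 2 of 19 receptor and MAPK feedback genes. They were 1 for the ETS, p53 pathway, Nfi and Zbtb lists, 7 for Zfp genes and 0 for oligodendrocyte markers and for ribosomal protein, Fox and Spry genes. With replicate 2 alone, histone and glial TF genes had counts of 50 and 10, AP-1 and immediate early genes had 6, and astrocyte and radial glia genes had 1. These counts were added after the data were seen.

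**Figure D4:**
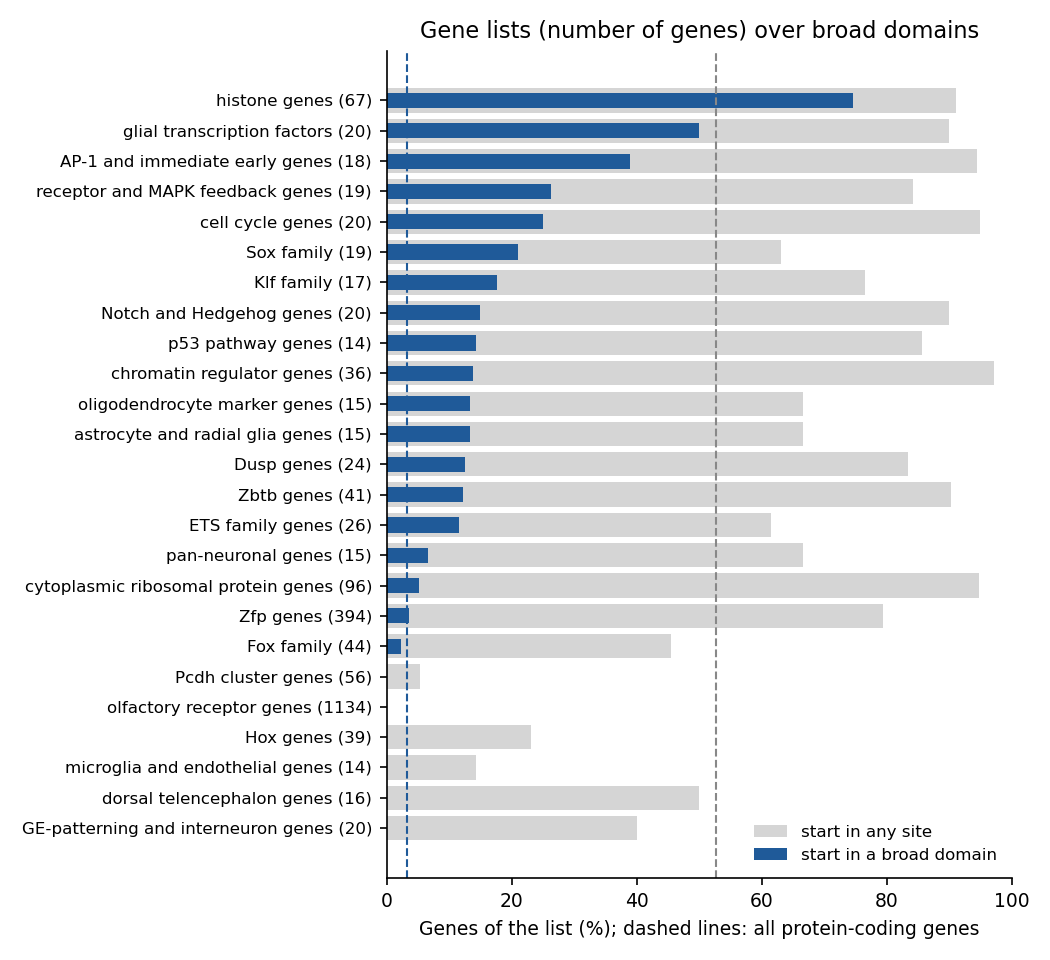
For each list of 10 or more genes, the percentage of genes with a start in a broad domain (blue) and in any site (grey), with dashed lines for all 21728 protein-coding genes at 3.19% and 52.8%. Histone genes (74.6%), glial TFs (50%) and AP-1 and immediate early genes (38.9%) have the longest blue bars, and 6 lists have none.

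The 10 longest domains with no coding start lay at lncRNA genes, within coding genes or away from annotated genes. The domain of 28562 bp on chromosome 13 lay 79191 bp from the nearest coding start at its summit and held a start of the lncRNA gene C130071C03Rik and the hairpin of miR-9-2, a miRNA of neural progenitors and neurons. Its longest peak was 9298 bp in replicate 1 and 28562 bp in replicate 2, with folds of 16.8 and 16.1. The domain of 27062 bp at chr15:85661111-85688172 was nearly whole in both replicates, with a longest peak of 25316 and 27062 bp and folds of 28.3 and 37.5. It held no annotated start, ended 18431 bp before Mirlet7c-2 and 19147 bp before Mirlet7b, and was preceded by a domain of 7568 bp over a start of the lncRNA gene Lncppara. Further ones lay within Tcf4 (15481 and 14595 bp), nearest Ptma (14588 bp), within Nfia (14216 bp), at the lncRNA gene 4930578M01Rik (14034 bp, folds 32.3 and 37.1), within Slc22a23 (13854 bp), Cdc42se2 (12455 bp, folds 33.6 and 45.01) and Trio (11999 bp). In all, 37 domains had no coding start but a start of an lncRNA gene, among them Neat1 (11735 bp, folds 28.7 and 32.5) and Malat1 (7600 bp), abundant nuclear RNAs, Mir17hg (9534 bp), Pvt1 (5224 bp), Mir22hg (5701 bp) and Mir99ahg (5188 bp), named after their values were seen.

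The miRNA genes were looked at after the values were seen, with hairpins and mature sequences from RefSeq (GRCm38.p6). Of 1005 hairpins on chromosomes 1 to 19 and X, 23 (2.29%) lay whole within a domain, in 15 domains, and 113 (11.2%) within another site. This is 4.43 hairpins per Mb of domain and 2.03 per Mb of other site, and the next shorter sites were not counted in this way. By overlap with a miRNA gene of the GENCODE annotation, 32 domains over 5.19 Mb held one. So did 60 of the next shorter sites over 12.0 Mb and 180 of all other sites over 55.7 Mb. The Mir17hg domain (chr14:115036857-115046390, longest peak 5225 and 9534 bp, folds 26.5 and 34.2) held 6 of the 23. Mature sequences of the better known miRNAs are shown because the domains cover the genes that make them, with the seed, bases 2 to 8, in capitals.
miR-9-5p: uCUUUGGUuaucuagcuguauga
miR-17-5p: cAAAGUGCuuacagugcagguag
miR-20a-5p: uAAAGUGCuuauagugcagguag
miR-18a-5p: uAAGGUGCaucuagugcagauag
miR-19a-3p: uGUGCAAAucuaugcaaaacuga
miR-19b-3p: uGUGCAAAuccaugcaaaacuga
miR-92a-3p: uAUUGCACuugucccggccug
miR-15b-5p: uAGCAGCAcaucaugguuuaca
miR-16-5p: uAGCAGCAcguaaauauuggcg
miR-132-3p: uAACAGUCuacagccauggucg
miR-212-3p: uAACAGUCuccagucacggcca
let-7i-5p: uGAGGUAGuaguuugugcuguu
Of the 12 miRNAs shown, 8 fall into pairs with the same seed, miR-17-5p with miR-20a-5p, miR-19a-3p with miR-19b-3p, miR-15b-5p with miR-16-5p, and miR-132-3p with miR-212-3p, and each pair lies in a single domain. The miR-15b and miR-16-2 genes lay in the domain at Smc4 and Ift80 (7114 bp, folds 25.2 and 37.5), the miR-132 and miR-212 genes in the domain at Hic1 (5327 bp, folds 11.9 and 17.7), and the let-7i gene in a domain of 5081 bp outside coding genes (folds 11.5 and 14.8). The seeds of miR-9-5p, miR-18a-5p, miR-92a-3p and let-7i-5p are each shared with no other miRNA shown.

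The domains were unevenly spread over the chromosomes. Chromosome 11 held 112 domains (9.17 per 10 Mb), chromosome 13 held 95 (7.89), chromosome 15 held 65 (6.25), chromosome 3 held 77 (4.81), chromosome 1 held 76 (3.89), chromosome 14 held 46 (3.68) and chromosome 6 held 55 (3.67). Each of the other autosomes had between 0.988 and 2.44 per 10 Mb, and chromosome X had none among 529 sites. Other sites were denser on the same chromosomes, with 343 per 10 Mb on chromosome 11 and 313 on chromosome 13, against 110 on chromosome 16. These 7 chromosomes held 69.8% of the domains and 53.3% of the other sites, so domains were 2.16% of all sites there and 1.08% on the other 13 chromosomes. The median folds of domains were 15.9 and 18.7 on the 7 and 12.4 and 15.3 on the rest, and those of other sites went the opposite way, with 4.86 and 4.60 on the 7 and 5.74 and 5.59 on the rest. The share of domains over a coding start was 76.4% on the 7 chromosomes and 76.3% on the rest. The number of chromosome copies in the line was not used here, and its part in these counts was not tested.

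The lists differed in how many of their genes in domains lay on these chromosomes, which were grouped by their domains after the values were seen. On the 7 denser chromosomes 6.55% of coding genes had a start in a domain, and on the others 1.43%. Of all 694 coding genes with a start in a domain, 490 lay on the 7 denser chromosomes. All 50 histone genes in domains lay there, but only 2 of the 10 glial TF genes, Sox10 and Zfp488. The counts were 4 of 5 for chromatin regulator genes, 3 of 5 for cell cycle genes and 3 of 4 for Sox genes. In lists this short these last counts are near the share of all such genes. The part of the chromosomes in the list counts was not tested.

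**Figure D5:**
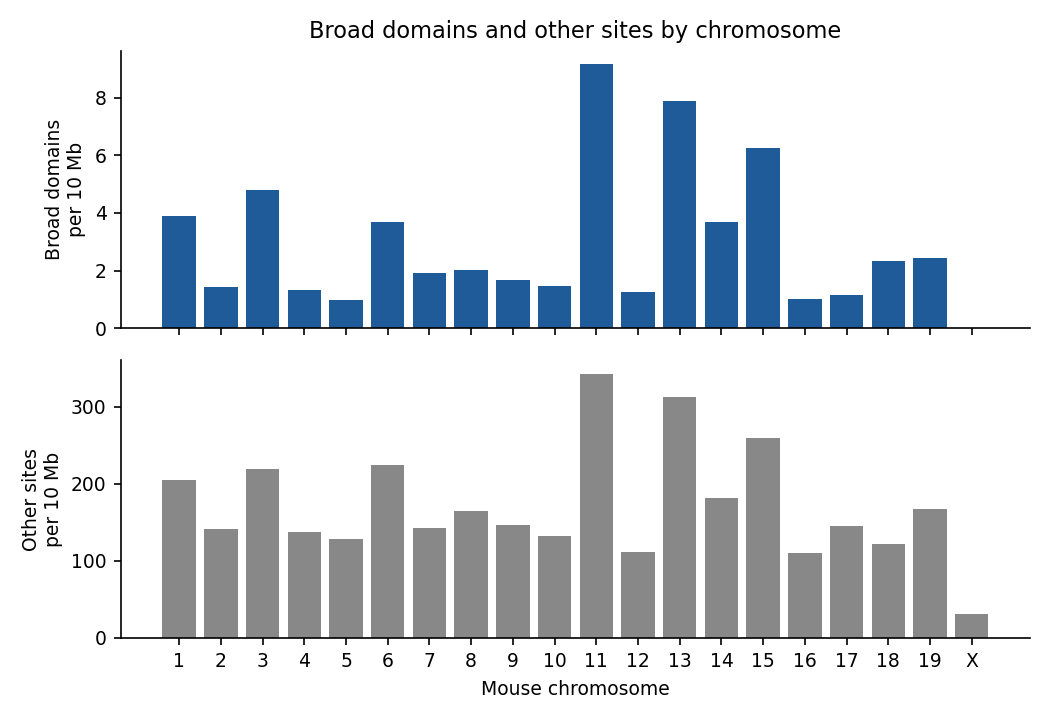
Broad domains (top) and other sites (bottom) per 10 Mb of each mouse chromosome. Chromosomes 11, 13 and 15 have the highest bars in both panels, and chromosome X has no domain and the lowest bar of other sites.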

How the data were processed

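V5 CUT&RUN peak lists of 2 Foxr2 p53LOF and 2 V5 control replicates were used. Per the labels and the study's methods, the authors trimmed reads with Trimmomatic (0.39), aligned them to mm10 with BWA (0.7.17), removed duplicates with Picard (2.26.6) and called peaks for each library with MACS2 (2.2.7.1), with HOMER (4.11) used for tracks. No input or control for the calling is named. The study's methods give only an approximate number of reads per library, and the depth of each single library is not given in the sources used here. The deposited values of each peak are its fold over the background of its library (a ratio), the −log10 p and −log10 q of the caller, and a score derived from the −log10 q, which was not used for any result.

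Fragments at summits and library backgrounds were recovered from fold and −log10 p, and for folds up to 30 all came out as whole fragments within 0.02. Peaks were merged and set against the GENCODE annotation and the RefSeq sequence of GRCm38, the build of mm10, with Python (3.11.15), pandas (2.3.3), numpy (2.4.6), scipy (1.17.1) and pysam (0.24.0), and plots were drawn with matplotlib (3.10.9). Summit windows for printing were taken from chromosomes 1 to 19 and X except chromosome 18. The steps were tested on simulated data. The domains and gene lists were chosen with earlier results of these data known. Named were the genes of the 15 longest domains, of the 10 highest by the lower of their folds and of the 5 with the largest difference between replicates. Genes of domains with 3 or more coding starts and of the 10 longest without one were also named. So were those of the 3 peaks just inside and 3 just outside the limit, and of lists and families with a start in a domain (the 5 longest for families over 10). The miRNA genes, runs, lncRNA names, summit distances, the grouping of the 7 denser chromosomes and the list members without a domain were added after values were seen. Alternatives were other length limits, the fold and q filter of the methods, joined peaks, other uses of the control peaks, leaving out libraries and other definitions of a start or of a shared peak.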

Additional observations from a re-analysis of the deposited data

How the results depend on the processing

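The number of domains (754) follows the length limit, by construction, and was 1588 at 4000 bp, 379 at 6000 bp and 131 at 8000 bp, 1462 with peaks of a list within 1000 bp joined first, and 252 where both replicates had to be broad. Leaving out 1 library at a time gave 306 to 756 domains, and the lowest value was without Foxr2 p53LOF replicate 2. The share over a coding start (76.4%) was 71.8% at 8000 bp, 73.5% with joined peaks and 84.0% with starts of any gene type, and 73.2 to 76.6% when 1 library was left out. With the limit moved for both replicates, 78% of broad replicate 1 peaks met a broad replicate 2 peak at 8000 bp, and in the reverse direction 42.3% did at 4000 bp and 30.8% at 8000 bp. The median GC content (48.2%) was 48.9% at 4000 bp, 47.9% at 6000 bp, 46.1% at 8000 bp, 47.6% with joined peaks, 48.5% with peaks of 10000 bp or more removed, 47.9% where both replicates were broad, and 48.2 to 48.5% when 1 library was left out. Beyond the number of domains, the cause was not tested. No paired analysis was possible because the results come from no test. There were 2 replicates of a single line, and 457 of the domains were broad in replicate 2 only.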
